A study of Branchiostoma lanceolatum with 8 samples.

Results

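The regions described here are those the authors listed as differing in chromatin accessibility between ectodermal explants of the amphioxus Branchiostoma lanceolatum that were treated with Activin and control explants, both at 19 hours post fertilization (hpf). All 7252 regions of that list were taken, with no selection on their values, out of 11149 regions in the lists of both times of the study. The assay was ATAC-seq, which marks open DNA by letting a transposase insert adapters there. Per the labels, the Activin group at 19 hpf had 2 libraries from explants given human recombinant Activin at 50 ng per mL, and the control group at 19 hpf had 2 libraries from explants labelled as controls. The same design was used at 11 hpf, which makes 8 libraries in all, and the libraries of a group are not stated to come from separate batches of embryos. An explant is a piece of tissue cut from the embryo, here ectoderm, and cultured apart from its neighbours. The way the explants were cut and the start and length of the treatment were not known here.

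Activin is a secreted protein of the TGF-beta family. It binds type II and type I serine/threonine kinase receptors, which phosphorylate SMAD2 and SMAD3, and these enter the nucleus with SMAD4 and act on enhancers together with other transcription factors. Nodal uses the same route. In vertebrate embryos ectoderm left under BMP signalling forms epidermis and ectoderm shielded from it forms neural tissue. In amphioxus, Activin or Nodal signalling can turn ectodermal explants, which otherwise form epidermis, towards a neural fate. A later difference in accessibility between such explants can lie in enhancers and promoters of either fate.

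The deposited list gives for each region its scaffold, start, end, number and a signed value, read here as a log2 fold change though its base is not stated. All log2 values below are the regions' own values from the authors' deposited table. The list holds no value per library, so no region has an SD here, no difference could be set against the spread between libraries, and the depth of the libraries is unknown. Which treatment is the numerator of the fold change is not stated. "Negative" and "positive" are therefore the signs of the list, and no region is described as more or less open after Activin. The region numbers increase along each scaffold and reach 87262, so the listed regions were 8.31% of at least 87262 numbered regions, the negative ones 7.53% and the positive ones 0.780%. Starts are 1-based, and no source used here names the genome build of the scaffolds. Intervals on shares and medians are 95% intervals (exact Clopper-Pearson for shares, order statistics for medians). They cover counting error over regions only, and regions are not replicates of a condition.

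The response at 19 hpf was mostly of a single sign: 6571 regions on 795 scaffolds were negative and covered 4.05 Mb, and 681 regions on 328 scaffolds were positive and covered 0.376 Mb. Negative values had a median of -2.42, with 5% of them below -4.04 and the value closest to 0 at -1.44. Positive values had a median of 2.30, with 5% of them above 3.46 and the value closest to 0 at 1.53. The bulk of both groups thus lay at similar distances from 0, and the groups differed in number and in their outer ends. Between an absolute log2 of 2 and 3, a difference of 4-fold to 8-fold, lay 4080 regions, or 56.3% of the list, and 10.8% of these were positive. From 3 to 4 there were 1263 regions, of which 6.10% were positive (95% interval 4.84 to 7.56%). From 4 to 5 there were 287, with 9 positive regions (3.14%, 95% interval 1.44 to 5.87%). Only 82 regions reached 5 or more, a difference of at least 32-fold, and 5 of these were positive. The share of positive regions was thus lower from 3 to 5 than between 2 and 3, while above 5 it rests on too few regions to place it.

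**Figure D1:**
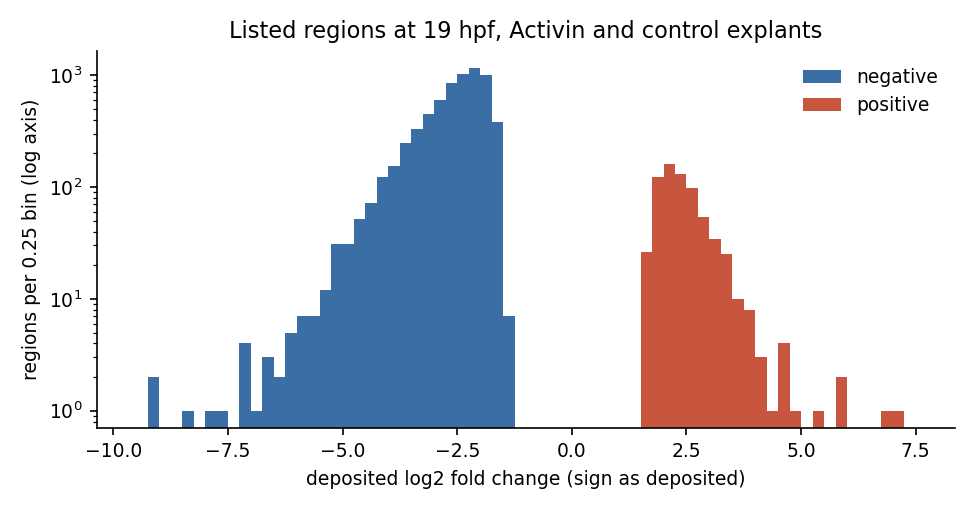
Number of listed regions at 19 hpf (vertical log axis) by deposited log2 fold change (horizontal axis) in bins of 0.25, with negative regions in blue and positive regions in red. The 6571 negative regions reach -9.18 and the 681 positive regions 7.04, and no region lies between -1.44 and 1.53.

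Widths ran from 145 to 4126 bp, and among the listed regions the fold changes were larger in narrow ones. Unlisted regions have no values here, so whether this holds for all numbered regions is not known. With the list split by width into 10 classes of like size, in the narrowest class (145 to 235 bp) the median absolute log2 was 2.67 and the largest 9.18. In the widest class (1120 to 4126 bp) the median was 2.20 and the largest 4.60. The smallest absolute value listed was 1.65 in the narrowest class and 1.44 in the widest. Regions of 4 or more in absolute log2 numbered 74 in the narrowest class and 8 in the widest, so the extreme values of the list came chiefly from short stretches. Positive regions were 11.2% of the narrowest class and 6.34% of the widest, without a steady fall between them. The share was 7.37% at 510 to 596 bp and 11.4% at 597 to 714 bp.

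**Figure D2:**
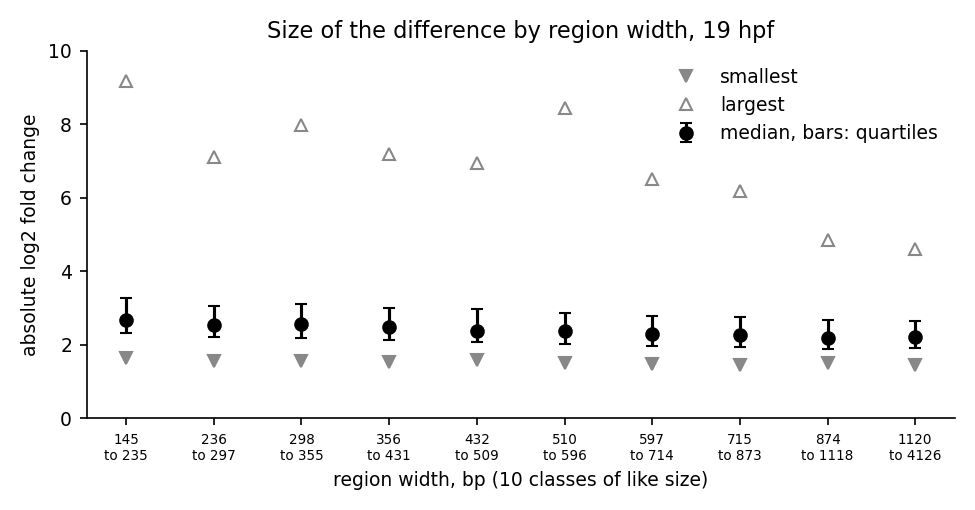
Absolute log2 fold change (vertical axis) of listed regions at 19 hpf in 10 width classes of like size, in bp (horizontal axis), with filled circles for medians, bars for quartiles, and triangles for the smallest and largest value. Medians go from 2.67 in the narrowest class to 2.20 in the widest, and the largest value from 9.18 to 4.60.

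Wide regions with large values are the differences that rest on the longest stretches of DNA. Among regions of at least 1000 bp there were 965 negative ones, of which 141 had an absolute log2 of at least 3, and 63 positive ones, of which 2 did. The most negative of them was a region of 1306 bp on Sc0000126 from 628371 to 629676, with -4.60, a 24.2-fold difference. It was followed by regions on Sc0000003 (2525643 to 2526894) with -4.50 and on Sc0000014 (2191246 to 2192264) with -4.45. The next were on Sc0000119 (687071 to 688318) with -4.42 and on Sc0000016 (556516 to 557557) with -4.33. All 5 lay directly beside another listed region in the numbering, and 3 of them overlapped a region that was negative at 11 hpf too, with -4.60 at 19 hpf and -2.54 at 11 hpf on Sc0000126, -4.50 and -3.43 on Sc0000003, and -4.42 and -3.49 on Sc0000119.

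The largest positive value among wide regions was 3.30, a 9.87-fold difference, over 1844 bp on Sc0000032 from 2530088 to 2531931. A region of 1788 bp on Sc0001329 (5776 to 7563) had 3.12. The next were 2.72 on Sc0000001 (8211175 to 8212250), 2.68 on Sc0000472 (32674 to 33689) and 2.51 on Sc0000003 (4364831 to 4366097). Of these 5 only the last overlapped an 11 hpf region, also positive, with 2.51 at 19 hpf and 1.45 at 11 hpf. Among regions of at least 1000 bp, an absolute log2 of 4 was reached by 13 of 965 negative ones and 0 of 63 positive ones. The positive ones were too few to tell the signs apart at that level.

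The widest regions of all had modest values. Among negative regions the widest was 4126 bp on xfSc0000699 (268 to 4393) with -2.29. Those on Sc0000167 (467555 to 470259), Sc0001363 (463 to 3132), Sc0000092 (878946 to 881555) and Sc0000085 (429372 to 431961) had -3.05, -2.27, -1.96 and -1.83 in that order. Among positive regions the widest was 2823 bp on Sc0001162 (3910 to 6732) with 2.04. It was followed by regions on Sc0000100 (183499 to 185917) with 1.64, xfSc0001997 (192 to 2377) with 1.85, xfSc0001079 (211 to 2149) with 1.90 and Sc0000193 (252 to 2155) with 1.76. Of these 10 regions 5 started within 500 bp of the beginning of their scaffold. In the whole list 132 regions did so, with a median width of 664.5 bp against 507 bp in the others, and 16.7% of them were positive (95% interval 10.7 to 24.1%) against 9.26% of the others.

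Short scaffolds held a larger share of positive regions. Scaffold lengths were not used here, and the last listed base at either time stood in for them as the span. On scaffolds with a span of under 10 kb, 65 of 292 regions were positive (22.3%, 95% interval 17.6 to 27.5%). On those of 10 to 100 kb the share was 13.8%, and on those of 100 kb to 1 Mb 11.9%. On the 100 scaffolds with a span of at least 1 Mb it was 7.12% (326 of 4579 regions, 95% interval 6.39 to 7.90%). The 415 scaffolds with a single listed region held a positive one in 103 cases (24.8%). Scaffold names beginning with xfSc and xpSc had positive shares of 18.6% and 18.1%, against 9.00% for names beginning with Sc. The medians of negative values differed little, with -2.31 on scaffolds under 10 kb and -2.45 on those of at least 1 Mb. What the name classes stand for is not stated, and the part of scaffold assembly in these shares was not tested.

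Where positive and negative regions lie relative to each other was then examined. Neighbouring listed regions on a scaffold formed 6345 pairs. All 99 pairs with a gap of at most 250 bp had the same sign. The share was 97.9% for gaps of 1 to 2 kb, 93.2% for 2 to 5 kb and 90.5% for 5 to 10 kb. For gaps of over 100 kb it was 84.5% (95% interval 82.3 to 86.6%). In a list with 90.6% negative and 9.39% positive regions, these proportions alone imply the same sign in 83.0% of pairs, which lies within the interval for the largest gaps. The same-sign share was thus above that level at short gaps and near it at the largest. The level rests on the whole list, with the 415 regions alone on their scaffold (24.8% positive), which form no pairs. It was not worked out for each gap, where the share of positive regions can differ. The size of the change did not follow the same course: the median absolute difference in log2 between same-sign neighbours was 0.55 at gaps of at most 250 bp, 0.61 at 500 to 1000 bp and 0.53 at over 100 kb. Close neighbours thus shared their direction more often, while the raw difference in magnitude was about the same at every gap. That difference was not scaled to the spread of the values, which was not the same everywhere. For negative regions in series of at least 3 consecutive numbers, the quartiles of absolute log2 were 2.24 and 3.34. For those with neither adjoining number listed they were 1.99 and 2.78. Whether close neighbours were more alike relative to that spread was not tested.

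**Figure D3:**
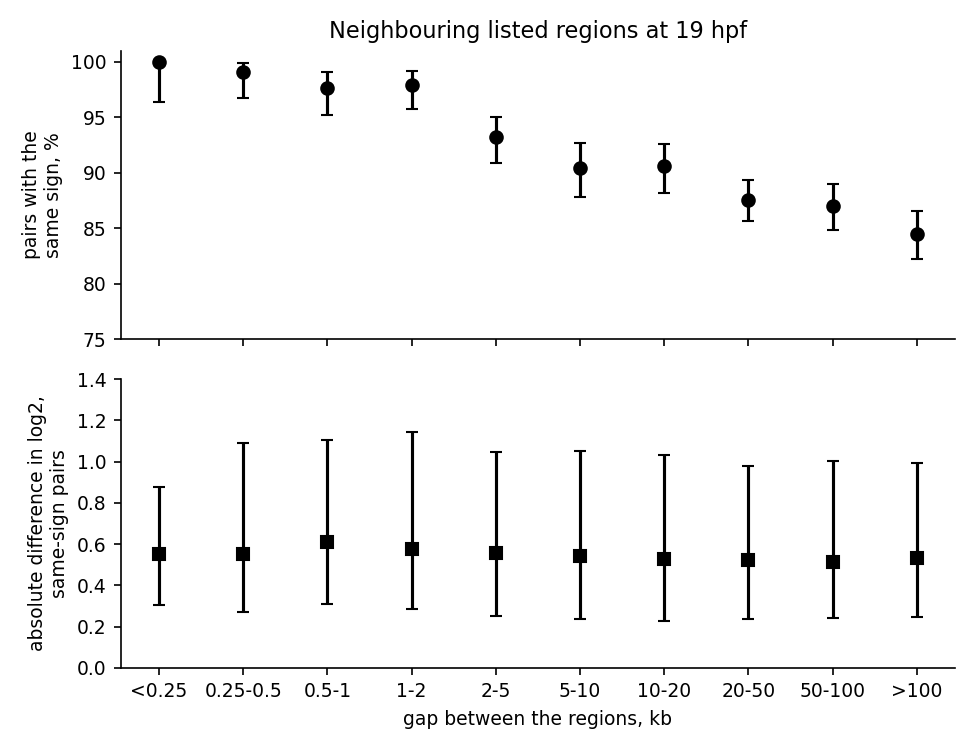
Pairs of neighbouring listed regions at 19 hpf by the gap between them in kb (horizontal axis). Upper panel: share of pairs with the same sign in percent, on an axis that starts at 75%, with 95% Clopper-Pearson intervals, from 100% at the smallest gaps to 84.5% at the largest. Lower panel: absolute difference in log2 within same-sign pairs as median and quartiles, with medians between 0.51 and 0.61 at every gap.

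Positive regions had a positive neighbour more often than negative regions did, though most had a negative one nearest. Of the 578 positive regions with another listed region on their scaffold, 246 had a positive one nearest (42.6%, 95% interval 38.5 to 46.7%), while positive regions were 9.39% of the list. With regions below 3 in absolute log2 left out, the share was 25%, while positive regions were 5.58% of the regions kept. In the full list, 176 of 273 positive regions with a listed region within 10 kb had a positive one nearest (64.5%). Within 1 kb it was 43 of 52 (82.7%). Of the 6259 negative regions with a neighbour, 298 had a positive one nearest (4.76%). The 9.39% also counts regions with no neighbour. Pairs of positive neighbours also lay closer together than pairs of negative neighbours, with median gaps of 7157 and 24119 bp. Pairs of opposite sign had a median gap of 45319 bp. Steps in the numbering, which count a member of the pair beside the regions between, were 24.3 per 100 kb between midpoints for positive neighbours. They were 16.1 per 100 kb for negative neighbours and 17.9 per 100 kb for neighbours of opposite sign. The member counted raises this measure where gaps are short, so it is not independent of the gaps. The order of the gaps was not that of these values.

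Runs of consecutive region numbers, in which every numbered region was listed, mark stretches in which no region of the numbering was left out. Alone, with neither adjoining number listed, stood 4435 regions. Another 1628 formed runs of 2, and 1189 regions, or 16.4% of the list, lay in 338 runs of at least 3 on 145 scaffolds. Runs of at least 5 numbered 39. Of these 38 were negative throughout, 1 was positive throughout and 0 were mixed. Of the negative regions 17.5% were in runs of at least 3, against 6.02% of the positive ones, in a list with 6571 negative and 681 positive regions. The part of these unequal numbers in the contrasts between the signs was not tested. Of the 41 positive regions in runs of at least 3, 22 (3.23% of all positive regions) were in 6 wholly positive runs and 19 in 13 runs that held both signs.

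Negative regions in longer runs had larger fold changes. Their median absolute log2 was 2.32 when alone (95% interval 2.30 to 2.34), 2.51 in runs of 2 (2.47 to 2.55) and 2.71 in runs of at least 3 (2.66 to 2.77). An absolute log2 of at least 3 was held by 17.7% of those alone and by 37.8% of those in runs of at least 3. The order was the same in each of 3 width classes. In regions of at most 381 bp the medians were 2.52 alone, 2.60 in runs of 2 and 2.92 in runs of at least 3. In regions of 382 to 678 bp they were 2.31, 2.57 and 2.66, and in regions of at least 679 bp 2.13, 2.35 and 2.55. In the narrowest class the 95% intervals for regions alone (2.48 to 2.56) and in runs of 2 (2.54 to 2.69) overlap. In the middle class those for runs of 2 (2.49 to 2.65) and of at least 3 (2.59 to 2.74) overlap. The same order was seen among regions with no counterpart in the 11 hpf list, with 2.29, 2.45 and 2.66. In positive regions the medians were 2.32 for the 528 alone (95% interval 2.25 to 2.37), 2.24 for the 112 in runs of 2 (2.11 to 2.36) and 2.34 for the 41 in runs of at least 3 (2.25 to 2.58), and these intervals overlap.

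The longest run held 8 negative regions on Sc0000258 over 30261 bp (350185 to 380445), and only 1 of them overlapped an 11 hpf region. Its log2 values in order along the scaffold were -1.94, -2.79, -1.88, -3.11, -2.89, -2.58, -4.31 and -2.21. The last 5 of these regions lay within 4 kb of one another, and the lowest value was at the second to last. A run of 7 on Sc0000019 took only 12131 bp (2351062 to 2363192), with -2.60, -2.93, -3.05, -5.59, -4.26, -3.99 and -1.89. Its values were most negative in the middle and closest to 0 at the far end.

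A run of 7 on Sc0000008 was the most spread out, over 53024 bp (5815096 to 5868119), with -2.17, -3.62, -4.22, -2.64, -3.98, -3.40 and -2.22. On Sc0000009 the 7 regions (3212784 to 3255983) had -1.78, -2.75, -2.08, -5.05, -4.52, -2.30 and -2.97. On Sc0000177 (575987 to 585141) they had -3.58, -2.20, -2.35, -3.95, -4.20, -2.20 and -2.95. In the last of these 6 of the 7 regions overlapped an 11 hpf region, against 1 of 7 on both Sc0000008 and Sc0000019 and 3 of 7 on Sc0000009. The 5 longest runs thus differed in how many members overlapped an 11 hpf region. Among all negative regions in runs of at least 3 the overlapping share was 33.1%, and these runs lay on both sides of it.

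**Figure D4:**
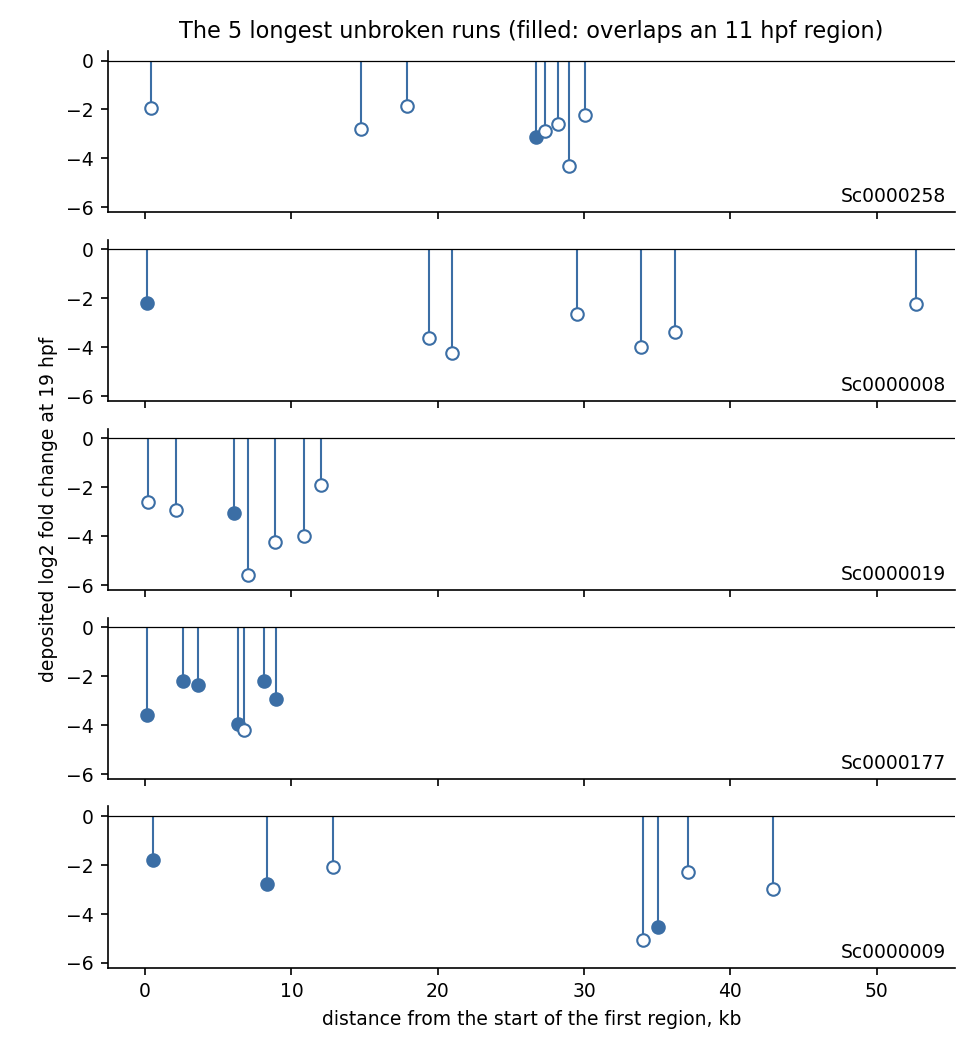
Deposited log2 fold change at 19 hpf (vertical axes) of each region in the 5 longest runs of consecutive region numbers, by distance in kb from the start of the first region (horizontal axis). Filled points overlap a region listed at 11 hpf and open points do not. All values are negative, from -5.59 to -1.78, and Sc0000177 has 6 filled points of 7.

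The longest wholly positive runs were shorter than the longest negative ones, in a list with 681 positive and 6571 negative regions. The longest was of 5 regions on Sc0000006 within 7718 bp (660220 to 667937), with 2.64, 2.15, 2.36, 1.89 and 2.34. A run of 4 on Sc0000055 (1206697 to 1212560) had 2.25, 3.48, 3.49 and 2.06, the inner regions being higher than the outer ones. Another run of 4, on Sc0000402 (101990 to 111068), had 2.37, 1.65, 2.26 and 2.28, with 0 of the 4 listed at 11 hpf. Of the 3 wholly positive runs of 3, those with the larger median values lay on Sc0000219 (229829 to 234043), with 2.81, 2.34 and 2.74, and on Sc0000013 (1989076 to 1995588), with 1.96, 1.86 and 2.39. All 3 regions of the run on Sc0000013 overlapped an 11 hpf region.

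In windows of 100 kb, 524 of the 3348 windows with a listed region held a positive one, and 30 held at least 3, which together took in 119 positive regions (17.5% of them). The fullest was on Sc0000055 from 1200001 to 1300000, with 8 regions, each of them positive, a median of 2.33, and only 1 overlapped an 11 hpf region. On Sc0000219 (200001 to 300000) all 7 were positive with a median of 2.63, and 4 of them overlapped an 11 hpf region. On Sc0000006 (600001 to 700000) all 7 were positive with a median of 2.34, and they took 7 of 10 consecutive numbers. The windows on Sc0000224 and Sc0000271, each from 100001 to 200000, held 6 positive regions beside 1 and 3 negative ones. The medians of their positive regions were 2.96 and 2.04, in that order.

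Most scaffolds with several regions were mixed or wholly negative. Of 492 scaffolds with at least 2 listed regions, 267 had negative regions only, 216 had both signs and 9 had positive regions only. Of the 158 with at least 10, which held 75% of the list, 110 had both signs, 48 were negative only and 3 had more positive than negative regions. The most regions were on Sc0000000 (188 negative and 13 positive), Sc0000003 (194 and 5) and Sc0000004 (169 and 5). Scaffolds also differed in how much of their numbered chromatin was listed. Among 153 scaffolds with at least 100 numbers between their first and last listed region, the listed share had a median of 10.1% (quartiles 7.59 to 13.0%). It was highest on Sc0000137 at 23.1%, where all 24 regions were negative, and lowest on Sc0000193 at 3.36%, where 3 of 4 were positive. By count of numbers, the longest stretch without a listed region was of 119 regions on Sc0000085 (657610 to 1134443, or 476834 bp), and another of 112 regions on Sc0000120 (174838 to 811032) was longer in bp, at 636195 bp.

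Among scaffolds with at least 10 listed regions, 3 had a positive majority, and the order of the signs along them is given here. A block is a stretch of successive listed regions of the same sign. Scaffolds picked for their positive share hold such stretches of positive regions in part by that choice. Whether the signs were more grouped than their numbers imply was not tested. On Sc0000089, 14 of 24 regions were positive. The first 13 along the scaffold, from 78494 to 617221, were all positive with values from 1.82 to 2.71. They were followed by 2 negative regions (679613 to 683074), a positive one with 2.33 (713249 to 713706), and then by 8 negative regions (748616 to 1058328) with values from -3.04 to -2.05. The sign of the difference thus changed along the scaffold between 617221 and 748616. On Sc0000219, 10 of 12 regions were positive, and 9 of them formed a block from 144579 to 242159 with a median of 2.58. The negative regions on either side of that block had -2.07 (82662 to 83319) and -2.09 (427325 to 428182).

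On Sc0000224, 10 of 16 regions were positive. A block of 3 negative regions at 4166 to 8568 (median -2.78) came first and then a block of 3 positive ones at 67611 to 91758 (median 2.39). After a negative region with -2.64 (101734 to 102520) came 6 positive regions from 111110 to 133291, with a median of 2.96 and the highest value at 3.71. Beyond them lay 2 negative regions (215003 to 286213) and a last positive one with 1.77 (347086 to 347386).

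**Figure D5:**
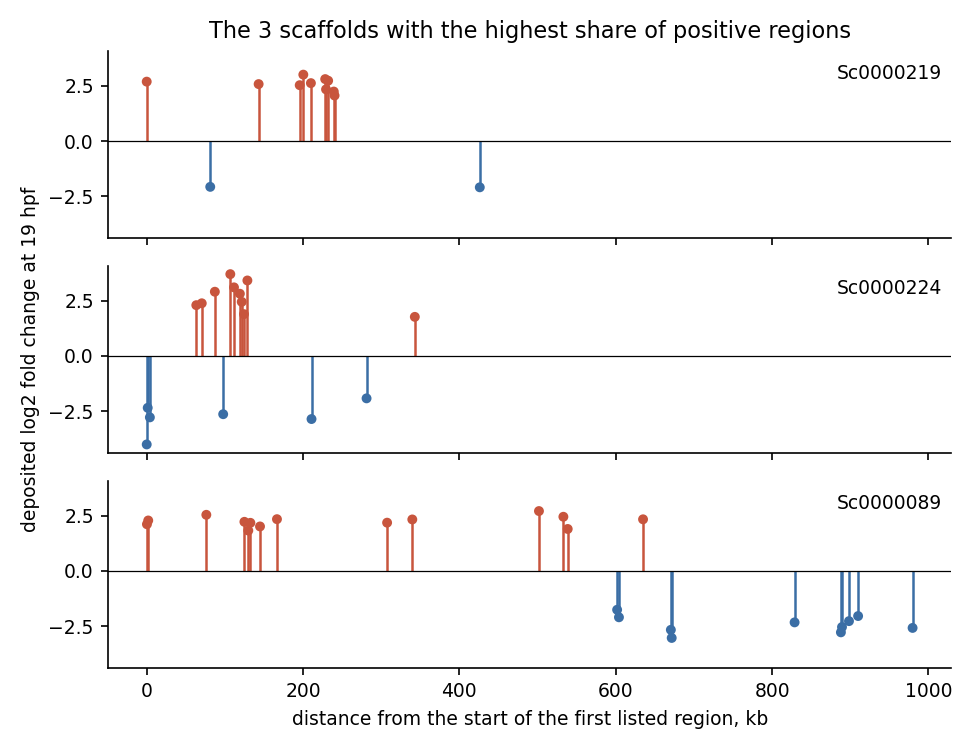
Deposited log2 fold change at 19 hpf (vertical axes) of every listed region on the 3 scaffolds with the highest positive share among scaffolds with at least 10 regions, by distance in kb from the start of the first listed region (horizontal axis), positive in red and negative in blue. On Sc0000089 the first 13 regions are positive and the last 8 negative, and on Sc0000219 and Sc0000224 positive regions lie in blocks of up to 9 and 6.

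Neighbours of opposite sign with strong values on both sides are given next, in a list where strong values were a minority. Absolute log2 values from 3 to 4 made up 17.4% of the list, those from 4 to 5 3.96% and those of 5 or more 1.13%. In these 3 classes, in that order, lay 77, 9 and 5 of the 681 positive regions. Of the 6571 negative regions they held 1186, 278 and 77. Neighbours of opposite sign formed 652 pairs, of which 114 had a gap of at most 10 kb and 9 of at most 1 kb, and 45 had consecutive numbers. Both absolute values were at least 3 in 15 of the pairs, and 3 of these 15 had a gap of at most 10 kb. That share was close to the 114 of 652 among all opposite pairs. Whether 15 strong pairs were fewer than the counts of strong regions of each sign imply was not tested. On Sc0000652 a region with 3.75 (44325 to 44587) lay 1616 bp before one with -3.01 (46204 to 47378). On Sc0000023 a region with 3.39 (1560365 to 1560555) and one with -4.03 (1563346 to 1563516) had consecutive numbers and a gap of 2790 bp. On Sc0000010 a region with -4.64 (1409669 to 1410371) lay 4615 bp before one with 3.14 (1414987 to 1415583). The next pairs were further apart, with 12563 bp on Sc0000054 (-3.01 and 3.11) and 20142 bp on Sc0000115 (4.92 and -3.97).

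The list was last set beside that of 11 hpf, which came from other libraries with their own controls. At 11 hpf the listed regions were 3.48% of at least 111831 numbered regions. The overlap by at least 1 bp, counted whatever the sign at the other time, took in 1608 regions of the 19 hpf list (22.2%). Of the 11 hpf list it took in 1644 regions (42.2%). By sign, the shares at 11 hpf were 54.6% of negative and 15.5% of positive regions, and at 19 hpf 21.9% and 24.4%. Negative 19 hpf regions that overlapped an 11 hpf region had a median of -2.59 (95% interval -2.63 to -2.55) and those that did not -2.36 (-2.39 to -2.34). For positive regions the medians were 2.21 for overlapping regions (95% interval 2.13 to 2.32) and 2.33 for the others (2.28 to 2.38), and the intervals overlap. Of the negative 19 hpf regions that stood alone 16.8% overlapped an 11 hpf region, of those in runs of 2 26.8%, and of those in runs of at least 3 33.1%. At 19 hpf 16.4% of regions lay in runs of at least 3 and at 11 hpf 16.8%, and the longest run had 8 regions at both times. Scaffolds with at least 2 regions had both signs in 43.9% of cases at 19 hpf and in 59.2% at 11 hpf. Neighbours more than 100 kb apart shared their sign in 84.5% of pairs at 19 hpf and in 59.7% at 11 hpf, in lists with 9.39% and 31.7% positive regions. None of these differences between times was tested, since the lists hold no values per library.

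Neural and epidermal fate of the explants could not be read from these values. The list names no genes, and the gene table used here places the genes of this species on another assembly, klBraLanc5.hap2, which shares 0 of the 907 scaffold names of the list. Regions near neural genes such as those of the SoxB family, neurogenin or Elav, and near epidermal genes such as Tfap2 or Dlx, were therefore not analysed here. The signs were likewise not assigned to a fate. Changes in the number of cells of a type and changes within cells cannot be told apart in such bulk libraries.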

How the data were processed

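ATAC-seq libraries of ectodermal explants were compared between Activin and control groups (2 libraries each) at 19 hpf. The authors' tools included BWA and DESeq2, per the submitters' processing notes, which give no versions. No source used here names the build, the peak caller, the threshold or any pooling. The signed column deposited by the authors was read as a log2 fold change from its values and that tool's usual output; the base and the numerator are not stated. The list holds no counts or p-values, so depth is unknown and no test between libraries was made. Everything below the authors' list was computed in Python 3.11.15 with pandas 2.3.3 and SciPy 1.17.1. Neighbours were successive listed regions on a scaffold, a run was an unbroken series of region numbers, and overlap meant at least 1 bp. The functions were tested on simulated lists. The regions named were the 5 longest runs, 5 windows of 100 kb with the most positive regions, 5 strongest regions of at least 1000 bp and 5 widest regions per sign, 5 closest strong opposite pairs and 3 scaffolds by count and by positive share; the 5 longest positive runs, the scaffolds with the extreme listed shares and the longest unlisted stretch were added after their values were seen. Members, rules and comparisons were chosen with earlier results of these data known.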

Additional observations from a re-analysis of the deposited data

How the results depend on the processing

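No paired analysis was possible because the list holds no values per library, and no library could be left out. Of 47 alternatives over 8 results, 20 stayed within the counting interval (for runs, within 1.5 times the count), 27 moved and 0 reversed; the causes were not tested, apart from those built into an alternative. With an absolute log2 of at least 3, the positive share was 5.58%, the median width 417.5 bp, scaffolds with both signs 23.7%, same-sign neighbours 99.02%, positive regions next to a positive one 25%, and regions in runs of at least 3 131. At 2 or more the width was 468 bp and same-sign neighbours 95.9%. On scaffolds of at least 1 Mb the positive share was 7.12%, the negative median -2.45 and scaffolds with both signs 81%, against 69.6% of scaffolds with at least 10 regions. Without regions overlapping an 11 hpf region, the negative median was -2.36, the width 478 bp, positive regions next to a positive one 37.1% and regions in runs 527. By base pairs the positive share was 8.49%. Means were -2.60 for negative and 2.43 for positive regions and 610.2 bp for width, which was 526 bp after merging. Same-sign shares were 96.3% within 5 kb, 91.8% within 50 kb and 97.3% at consecutive numbers. Within 10 kb 64.5% of positive regions had a positive one nearest. Runs of at least 2 and 5 held 2817 and 213 regions. Shares by scaffold span and medians by run within width classes were added after the lists had been seen. Depth is unknown, so it cannot be said which unlisted regions could have been detected.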
